A study of Mus musculus with 6 samples.

Results

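The gastrokines Gkn1, Gkn2 and Gkn3 and the trefoil factors Tff1, Tff2 and Tff3 were followed through 6 single-cell libraries of mouse pancreatic tumours, 3 from mice given the Smoothened inhibitor IPI-926 and 3 from mice given vehicle. They are 6 of the 32285 genes in the deposited tables and were found by their symbols, each of which occurred once. The family was chosen from measured values: earlier sums over the fibroblasts of these libraries had shown fewer Gkn2 UMIs in IPI-926 than in vehicle. Levels and differences between the groups are therefore given as a description of these libraries, and support nothing beyond it. A UMI (unique molecular identifier) is a tag that counts an RNA molecule once, however often it was amplified.

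Gastrokines and trefoil factors are small secreted proteins of the stomach lining. Surface mucous (pit) cells make Gkn1, Gkn2 and Tff1 together with the mucin Muc5ac, mucous neck cells make Tff2, and in mice Gkn3, with the mucin Muc6, and Tff3 is the trefoil peptide of intestinal goblet cells. The healthy pancreas makes little of them, whereas precursor lesions of pancreatic ductal cancer are known to switch on gastric genes. Outside a cell that makes them, such abundant RNAs can also be counted in droplet data when free RNA from broken cells is enclosed with another cell.

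The tumours came from mice whose alleles include P53LSL.R172H/+ and Pdx1-Cre, in which Cre driven by the Pdx1 promoter acts in cells of the Pdx1 lineage, and vehicle and IPI-926 mice carried the same genotype. Pdx1 is also active in the embryonic distal stomach and duodenum. IPI-926 was given by gavage at 40 mg/kg each day for 2 days, the vehicle (hydroxypropyl-beta-cyclodextrin, HPBCD) on the same schedule, and tumours, trimmed of healthy pancreas, were taken 2 hours after the last dose, dissociated with enzymes and loaded on the 10x Single Cell 3' v3 assay. The age of the mice is not given in the sources used here, and nothing in the labels names a batch or ties a vehicle tumour to a treated one. The libraries held 100810942 to 174929328 UMIs, and 49797 cells in 36 clusters were kept, of which 6975 cells were ductal epithelial. The p-values below measure the spread between these 6 tumours.

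The ductal cells were named from a list of epithelial markers, among them Epcam and Krt19. Epcam was at 1364 to 2698 CPM (UMIs of a gene scaled to a common library total, with no scaling by gene length because the assay counts 3′ ends) in the summed ductal cells of the 6 libraries and at 4.27 to 56.6 CPM in all other named classes together, acinar cells left out. Krt19 was at 657 to 2083 CPM against 21.8 to 203 CPM. Msln, on the same list and also a mesothelial marker, was not higher in the ductal cells of every library. It was at 123 against 229 CPM in vehicle replicate 1 and 52.3 against 87.6 CPM in IPI-926 replicate 3, and higher in ductal cells elsewhere. The leukocyte gene Ptprc was at 1.68 to 20.4 CPM and the fibroblast gene Col1a1 at 10.9 to 216 CPM in ductal cells, both highest in IPI-926 replicate 3, whose ductal cells were also the shallowest, with a median of 4750.5 UMIs against 22329.5 to 51502.5 elsewhere. Ductal cells were 19.2%, 8.56% and 37.7% of the vehicle libraries (replicates 1 to 3) and 10.6%, 13.6% and 5.28% of the IPI-926 libraries, a difference in means of -12.0 percentage points with overlapping groups (two-sided exact permutation p = 0.3, the smallest possible being 0.1).

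The family sits at a pair of compact loci. On the GRCm38 build with GENCODE vM21, Gkn1, Gkn2 and Gkn3 lie within 43.3 kb on chromosome 6 (chr6:87345650-87388935), and Tff1, Tff2 and Tff3 within 40.0 kb on chromosome 17 (chr17:31125306-31165277). Gkn1 (chr6:87345650-87350942) and Gkn3 (chr6:87383256-87388935) are on the minus strand and Gkn2 (chr6:87373357-87379497) on the plus strand. Tff1, Tff2 and Tff3 are all on the minus strand. Tff1 overlaps the gene Gm15318 on the opposite strand. The sources used here do not give the strand setting of the counting, so whether reads of that pair were told apart is not known here. The 250 bases before the start sites of the gastrokines are shown because Gkn1 and Gkn2 were the pair of members most alike across ductal sub-clusters, as given further on. They are from RefSeq's table of the GRCm38.p6 build and are written 5′ to 3′ on the strand of each gene, with capitals for the letters GATAA or TTATC (the GATA factor motif, read on either strand), TATAAA (the TATA box) and TGTTTGC (a forkhead motif). Gkn1 is chr6:87350916-87351165 on the minus strand, Gkn2 chr6:87373115-87373364 on the plus strand and Gkn3 chr6:87388936-87389185 on the minus strand. Start sites and positions here are those of the RefSeq table. For Gkn1 and Gkn2 they lie inside the GENCODE genes given above, so these windows overlap the first bases of those genes.
Gkn1: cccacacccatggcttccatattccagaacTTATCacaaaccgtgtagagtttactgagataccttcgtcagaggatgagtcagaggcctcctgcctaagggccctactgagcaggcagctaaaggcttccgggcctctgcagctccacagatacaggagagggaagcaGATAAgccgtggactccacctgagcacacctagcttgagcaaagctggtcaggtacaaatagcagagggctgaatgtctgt
Gkn2: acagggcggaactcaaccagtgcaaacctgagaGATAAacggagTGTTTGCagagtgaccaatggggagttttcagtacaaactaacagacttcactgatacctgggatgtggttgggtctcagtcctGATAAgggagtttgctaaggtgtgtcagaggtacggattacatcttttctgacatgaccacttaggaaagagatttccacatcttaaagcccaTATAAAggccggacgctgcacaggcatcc
Gkn3: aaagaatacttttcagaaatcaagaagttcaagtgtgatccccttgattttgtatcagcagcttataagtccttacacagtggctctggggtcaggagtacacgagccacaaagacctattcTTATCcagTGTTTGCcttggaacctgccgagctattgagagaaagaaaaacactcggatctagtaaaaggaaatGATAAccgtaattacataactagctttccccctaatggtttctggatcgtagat
All 3 windows held 2 matches to the GATA motif, which 22.6% of 32851 mouse promoter windows of this length held at least once and 4.28% at least 2 times. The TATA box, held by 12.4% of windows, was in the Gkn2 window, at -29 to -24 from the start site. The forkhead motif TGTTTGC, held by 4.30% of windows, was in the Gkn2 window at -206 and in the Gkn3 window at -120. Another forkhead form that was searched, TGTTTAC, held by 3.17% of windows, was in none of the 3. The motifs did not overlap each other. These matches describe the letters only, and the promoters of the trefoil factors were not analysed here.

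In ductal cells the pit-type gastrokines were lower in each IPI-926 library than in any vehicle library. Gkn1 was at 1962, 2042 and 771 CPM in vehicle replicates 1 to 3 and at 1.01, 193 and 374 CPM in IPI-926 replicates 1 to 3. Gkn2, which in the human stomach forms a dimer with TFF1, was at 423, 1619 and 230.2 CPM in vehicle and at 0.176, 3.07 and 114 CPM in IPI-926. Neither gene overlapped between the groups, and the lowest library was IPI-926 replicate 1 for both. Of the 15140 genes tested in ductal sums, 4.11% had every IPI-926 library below every vehicle library. Values of the same groups chose the family, so nothing is read from this separation. As group means, Gkn1 was at 1591 ± 712 CPM in vehicle and 189 ± 187 CPM in IPI-926, and Gkn2 at 757 ± 752 and 39.0 ± 64.7 CPM (SD, n = 3 libraries each).

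The neck-type genes and Tff1 overlapped between the groups. Gkn3 was at 3219.6, 479 and 2739.9 CPM in vehicle and at 5.46, 1745 and 472 CPM in IPI-926. Tff1 was at 4896, 9611 and 1651 CPM in vehicle and at 15.5, 1791 and 2065 CPM in IPI-926. Tff2, the most abundant of the 6 by summed UMIs, was at 14998, 3109 and 7847 CPM in vehicle and at 35.1, 6108 and 11242 CPM in IPI-926. IPI-926 replicate 1 was lowest for each of these, and vehicle replicate 2 was lowest among the vehicle tumours for Gkn3 and Tff2 but highest for Tff1 and Gkn2. Tff3, the goblet trefoil, was at 31.9, 90.7 and 26.2 CPM in vehicle and at 0.0219, 33.2 and 2934 CPM in IPI-926. Its single high value was in IPI-926 replicate 3, and its value in IPI-926 replicate 1 rests on 1 UMI.

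**Figure D1:**
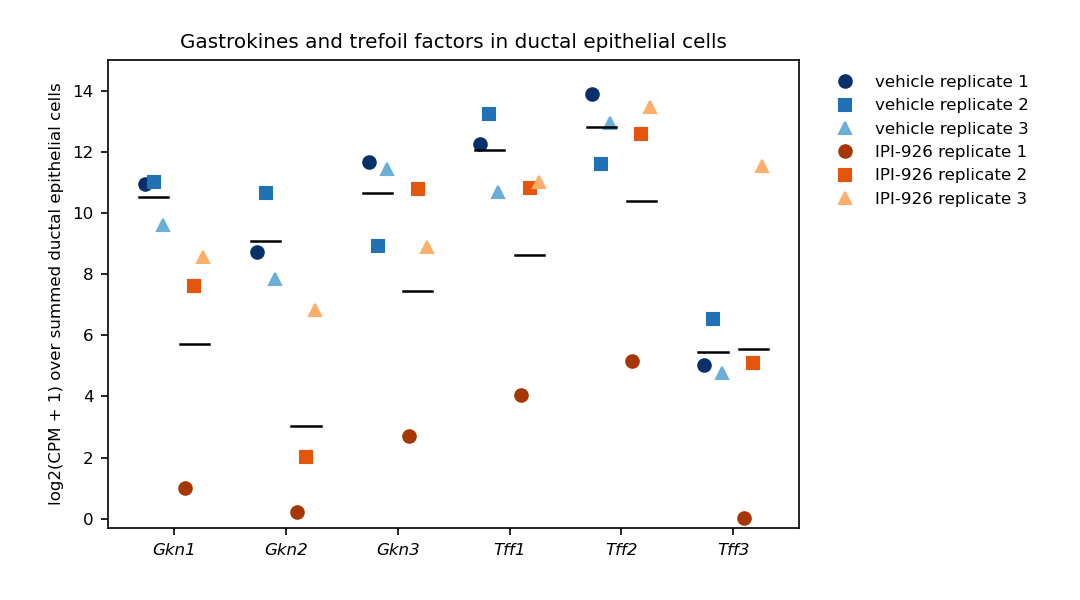
Level of each gastrokine and trefoil factor in summed ductal epithelial cells, as log2(CPM + 1) on the vertical axis, with 1 point per library (blue for vehicle, orange for IPI-926) and a black line at the mean of these log2 values in each group. IPI-926 replicate 1 lies lowest for all 6 genes, and the vehicle and IPI-926 points are apart for Gkn1 and Gkn2 only.

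Together the 6 genes made up 2.55%, 1.70% and 1.33% of all ductal UMIs in the vehicle libraries and 0.00573%, 0.987% and 1.72% in the IPI-926 libraries. IPI-926 replicate 1 therefore stood far below the other 5 libraries, while IPI-926 replicate 3 was second only to vehicle replicate 1. In IPI-926 replicate 1, 92.2% of ductal cells fell in a cluster led by Pvt1, and it kept Epcam at 1364 CPM and Krt18 at 3430 CPM. Gkn2 was seen, with at least 1 UMI, in 38.1%, 52.7% and 41.7% of vehicle ductal cells and in 0.256%, 5.46% and 11.8% of IPI-926 ductal cells. With each cell thinned to 2000 UMIs, the Gkn2 shares were 12.95%, 23.0% and 9.93% in vehicle and 0%, 0.605% and 4.61% in IPI-926, and the groups still did not overlap. The shares of cells with Gkn1 did overlap, with 62.2% in IPI-926 replicate 2 above 59.1% in vehicle replicate 2. In the thinning, cells with fewer than 2000 UMIs were left out: 249 of the 748 ductal cells of IPI-926 replicate 3, and 12 to 126 cells in each other library.

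Fitted across all genes on summed ductal counts, no gene passed between IPI-926 and vehicle with edgeR's quasi-likelihood test (0 of 15140 genes, or 0%, at an adjusted p under 0.05, with 517 at an unadjusted p under 0.05; limma-voom called 0 and DESeq2 64). The log2 fold changes, IPI-926 minus vehicle with their SE, were -3.10 (1.53) for Gkn1, -4.27 (2.04) for Gkn2, -1.62 (1.53) for Gkn3, -2.09 (1.39) for Tff1, -0.62 (1.45) for Tff2 and 4.33 (2.60) for Tff3, each at an edgeR adjusted p of 0.999. The median over all genes tested was 0.05. Of the 6 genes, 2 had every IPI-926 library below every vehicle library, against 4.11% of all genes tested, and nothing is read from this count because values of the same groups chose the family. Without IPI-926 replicate 1 the fold changes were -2.52 for Gkn1, -3.69 for Gkn2, -1.04 for Gkn3, -1.51 for Tff1, -0.04 for Tff2 and 4.91 for Tff3. Without IPI-926 replicate 3 Gkn2 was at -8.90 and Tff2 at -1.59, without vehicle replicate 2 Tff2 was at -1.03, and without IPI-926 replicate 2 Gkn3 was at -3.19. With limma-voom Gkn1 was at -5.52, Gkn2 at -8.15, Gkn3 at -3.28, Tff1 at -3.42 and Tff2 at -2.44, and at a cluster resolution of 2 Gkn3 was at -0.36. The direction of Tff3 rested on IPI-926 replicate 3 (-1.65 without it, and -3.28 with limma-voom), and that of Tff2 on vehicle replicate 1 (0.04 without it) and on the resolution of the clusters (0.11 at a resolution of 2).

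Summed over all kept cells, which needs no clustering, the fold changes were again negative apart from that of Tff3, and none passed in edgeR. Gkn2 was at 189, 616 and 193 scaled CPM in vehicle and at 0.164, 5.57 and 8.08 in IPI-926, and Gkn1 at 859, 779 and 609 against 0.738, 115 and 27.04. Tff1 was at 2143, 3658 and 1288 scaled CPM in vehicle and at 22.0, 1069 and 164 in IPI-926. These 3 genes had every IPI-926 library below every vehicle library, against 4.26% of the 17858 genes tested. The log2 fold changes were -6.17 (SE 1.42) for Gkn2, -3.97 (1.46) for Gkn1, -2.50 (1.25) for Tff1, -1.82 (1.73) for Gkn3, -1.64 (1.43) for Tff2 and 1.61 (1.87) for Tff3 (-1.22 without IPI-926 replicate 3). Without IPI-926 replicate 2 they were -4.66 for Tff1, -5.98 for Gkn3 and -3.54 for Tff2, and without IPI-926 replicate 1 -1.24 for Gkn3 and -1.06 for Tff2. Without vehicle replicate 3 Gkn3 was at -1.17, and with limma-voom Tff1 was at -3.79, Gkn3 at -3.75 and Tff2 at -3.09. The test called 0 genes, or 0%, with edgeR (682 at an unadjusted p under 0.05) and 0 with limma-voom, each member being at an adjusted p of 0.999 in edgeR. DESeq2 called 121 genes (0.689%), Gkn2 among them at an adjusted p of 3.51e-05, which is the gene whose difference led to the choice of the family. In such whole-tumour sums fewer ductal cells and less RNA per ductal cell cannot be told apart, and the acinar enzymes stood beside them: all 11 tested had negative fold changes with a median of -5.20, and 8 had every IPI-926 library below every vehicle library, against the 4.26% given above. Their part in the result was not tested.

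Within a tumour most UMIs of Gkn1 and Gkn2 came from a minority of ductal cells. The top 10% of ductal cells held 88.1%, 93.3% and 92.7% of Gkn1 UMIs in vehicle replicates 1 to 3, and 96.2%, 94.1% and 94.2% of Gkn2 UMIs. For Gkn3 the share was 57.9%, 74.1% and 74.6%, for Tff2 62.6%, 81.8% and 72.8%, and for Tff1 82.9%, 64.3% and 89.2%. In IPI-926 replicate 3 the top 10% held 98.5% of both Gkn1 and Gkn3 UMIs. The median ductal cell of vehicle replicate 1 had 98.8 CPM of Gkn1, 0 of Gkn2, 677 of Gkn3, 301 of Tff1 and 2634 of Tff2. The highest cells of vehicle replicate 1 reached 148871 CPM of Gkn1 and 234832 CPM of Tff2. In IPI-926 replicate 1 no gene of the family had a UMI in more than 3.96% of ductal cells. The top 10% there therefore had to hold every UMI, and nothing is read from it. Cells were ranked by raw UMIs of the gene, so deeper cells weigh more in these shares.

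Reclustering the ductal cells without the 6 genes gave 15 sub-clusters, which are called here by number and leading genes. Sub-cluster 10, led by Clca1, Lypd8 and Mucl3, with genes of both the goblet list (Clca1, Fcgbp) and the pit list (Mucl3) among its top 10, held 49 cells, 0.7% of the ductal cells, and had 41644 CPM of Gkn1, 14680.4 of Gkn2, 68849 of Tff1 and 20855 of Tff2. These 49 cells held 29.0% of all ductal Gkn1 UMIs and 24.1% of Gkn2 UMIs. In the libraries with at least 20 of them, Gkn1 was at 28286 CPM in vehicle replicate 1 and 57220.4 CPM in vehicle replicate 3, and 53.1% of the cells came from vehicle replicate 1. Sub-cluster 0, with 1000 cells led by Gp2 and Reg1, and with the acinar enzyme gene Cela1 and the neck mucin Muc6 among its top genes, had 29108 CPM of Tff2 and 7635 of Gkn3 and held 50.02% of ductal Tff2 and 49.8% of ductal Gkn3 UMIs. Sub-cluster 7, led by Cybrd1 and mostly of IPI-926 replicate 2 (82.1%), had 8673 CPM of Tff2, 2431 of Gkn3 and 129 of Gkn2.

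The remaining sub-clusters differed as widely. Sub-cluster 1, led by Pvt1 and with Myc among its top genes, had 720 cells of which 96.7% were from IPI-926 replicate 1, and all 6 genes were between 0 and 4.53 CPM in it. Sub-cluster 3, led by Tnc, Inhba and Piezo2 and mostly of vehicle replicate 3, had 33.6 CPM of Gkn1, 55.4 of Gkn3 and 176 of Tff2, so that low levels were found in vehicle cells as well. Sub-cluster 5, led by Gm10260 and En1 with the proliferation gene Mki67 among its top genes, was mostly of vehicle replicate 2 (60.2%) and held 57.9% of ductal Gkn2 and 45.1% of ductal Tff1 UMIs. Within it Gkn2 was at 146, 1726 and 12.7 CPM in vehicle replicates 1 to 3 (70, 529 and 26 cells) and at 1.92 CPM in the 251 cells of IPI-926 replicate 2, so the vehicle tumours differed widely among themselves. Tff3 was highest in sub-clusters 13 and 14, both entirely of IPI-926 replicate 3 and with antigen-presentation genes such as Cd74 and H2-Q7 among their top genes. They had 5121 and 3193 CPM and held 14.5% and 59.6% of ductal Tff3 UMIs. Their Gkn1 levels were 14.98 and 14.83 CPM. Sub-cluster 13 was led by Ccl8 and Ccl5 and was shallow, with a median of 1939.5 UMIs per cell against 14693.5 in sub-cluster 14. Sub-clusters 6, 9, 11, 12 and 13 were led by genes of neutrophils, fibroblasts or macrophages (S100a8, Mgp, Ccl8), and their part in the levels was not tested.

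**Figure D2:**
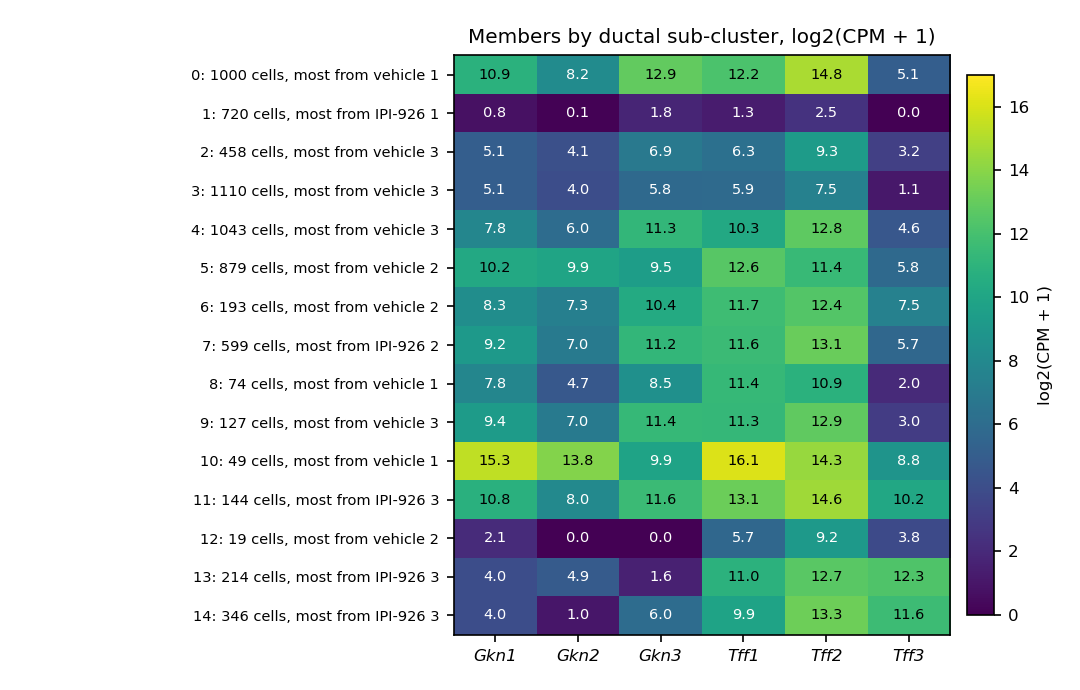
Level of each gene over the summed cells of all libraries, log2(CPM + 1) in colour and digits, in the 15 ductal sub-clusters made without these genes. Rows give the number of cells and the library that gave most of them. Sub-cluster 10 is highest for Gkn1, Gkn2 and Tff1, sub-cluster 0 is highest for Tff2 and Gkn3, sub-clusters 13 and 14 are highest for Tff3, and sub-cluster 1 is near 0 throughout.

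Gkn2, Gkn1 and Tff1 were also compared cell by cell. Among ductal cells with at least 5000 UMIs, and counting a gene as present at 200 CPM or more, 133 cells of vehicle replicate 1 had Gkn2, of which 98.5% also had Gkn1, a gene present in 35.4% of all such cells. Of these Gkn2 cells 99.2% had Tff1, against 51.8% of all cells. In vehicle replicate 2 the Gkn2 cells had Gkn1 in 91.9% and Tff1 in 99.4% of cases, and in vehicle replicate 3 in 87.9% and 94.6%. In vehicle replicate 3 the reverse was not so, with Gkn2 in 28.0% of Gkn1 cells. The reverse share is given for that library only. Tff2 was present in 96.7%, 77.4% and 96.1% of the Gkn3 cells of vehicle replicates 1 to 3, against 84.5%, 39.1% and 61.0% of all cells. In IPI-926 replicate 3 Tff3 was present in 2 of 21 Gkn1 cells, 2 of 10 Gkn2 cells and 1 of 28 Gkn3 cells, against 61.3% of all its cells. A present or absent call in the same cell shares that cell's depth, so these shares are a description.

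Over 30 sums of a ductal sub-cluster within a library, the genes most like each member were found by the Pearson correlation of log2(CPM + 1) among 9396 genes. Gkn1 was most like Syt16 (0.90), Slc26a2 (0.90), a sulphate transporter, and Prap1 (0.88), and Gkn2 most like Clca1 (0.81), Cystm1 (0.80) and Slc26a2 (0.78). Tff1 was most like Slc26a2 (0.97), Vsig1 (0.94), a junction protein of the stomach, and Papss2 (0.94), which makes the sulphate donor of mucins. Gkn3 was most like Acsm3 (0.85), Anxa10 (0.85), which is on the pit list, and Agr2 (0.83), and Tff2 most like Arl14 (0.95), Ucp2 (0.93) and Agr2 (0.93), a protein disulphide isomerase needed for mucin folding. Tff3 was most like Akr1b7 (0.87), Cd55 (0.85) and Cyp2c65 (0.85). Among the members themselves Gkn1 was closest to Gkn2 (0.92) and Tff1 (0.91), and Gkn3 closest to Tff2 (0.84), with Gkn1 next (0.80). Tff2 in turn was closest to Tff1 (0.89). The sums share libraries and depth, so the correlations describe these 30 sums.

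Other gastric genes of the ductal cells were compared in the same fit, by lists chosen with earlier results known, and none of their genes passed in edgeR. Of 9 pit cell genes 8 had negative fold changes, with a median of -0.97 against 0.05 over all genes. Mucl3 was at 40.9, 45.6 and 23.9 scaled CPM in vehicle and at 1.86, 21.005 and 7.74 in IPI-926, and Anxa10 at 153, 85.9 and 92.4 against 1.81, 61.0 and 50.4. These were the 2 pit genes with every IPI-926 library below every vehicle library, against 4.11% of all genes tested. Psca, a surface antigen of pit cells, overlapped (461, 425 and 162 against 44.1, 344 and 112), and Capn8 was at 5.01 in IPI-926 replicate 3 and between 0 and 0.628 elsewhere. Of 7 mucous neck and chief cell genes tested 4 were negative (median -0.12), of 5 goblet genes 2 (median 0.22), of 16 gastric and foregut transcription factors 11 (median -0.34) and of 8 general ductal genes 6 (median -0.14). The neck mucin Muc6 was at 433, 22.2 and 108 scaled CPM in vehicle and at 0.966, 234 and 43.3 in IPI-926, which, as for Tff2, put vehicle replicate 2 lowest among the vehicle tumours and IPI-926 replicate 1 lowest of all. Of the goblet genes, Spink4 was at 1342.5 scaled CPM in IPI-926 replicate 3 and at 7.23 to 312 elsewhere, and Fcgbp, which binds TFF3 in human mucus, at 138 against 0.212 to 25.04, both highest in the library that was highest for Tff3. Clca1, also on the goblet list, went the other way, at 43.6, 145 and 30.3 in vehicle and at 0.0471, 8.54 and 29.96 in IPI-926, with every IPI-926 library below every vehicle library. Gata4, a transcription factor of the stomach, was at 19.5, 9.54 and 11.4 in vehicle and at 6.64, 10.2 and 2.51 in IPI-926, with overlap. The acinar enzymes, genes of another cell type, were also low in the IPI-926 ductal sums, with none past the test: 9 of 11 were tested, all 9 had negative fold changes (median -3.20), and 6 had every IPI-926 library below every vehicle library, against 4.11% of all genes tested. Ctrb1, the chymotrypsinogen, was at 57.5, 9.46 and 107 scaled CPM in vehicle and at 0.542, 1.67 and 2.51 in IPI-926. Their part in the members' values was not tested.

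Of the genes reported as receptors or partners of trefoil peptides, Cxcr4, Ackr3 and Egfr reached higher levels in other cells than in ductal cells. Most UMIs of the mucus partners Muc6, Muc5ac and Dmbt1 were in ductal cells. Cxcr4, reported to respond to TFF2, was at 207 to 575 CPM in neutrophils, 124 to 306 in B cells and 53.0 to 274 in T or NK cells, but at 1.12 to 4.48 in ductal cells. Ackr3 had its highest median over libraries in endothelial cells (45.4 CPM, range 37.6 to 55.1) and its highest single value in fibroblasts. Fibroblasts were at 20.7 to 203 CPM with a median of 23.9, and ductal cells at 5.76 to 25.7. Mesothelial cells were at 11.6 to 51.4 CPM and perivascular cells at 8.04 to 57.1. Egfr was at 64.3 to 164 CPM in mesothelial cells, 13.1 to 109 in fibroblasts and 11.9 to 46.9 in ductal cells. Lingo2, reported in mice to bind TFF3, had 15 UMIs in ductal cells and 5 elsewhere, too few to give a level. In ductal cells the mucus partners were at a wide range of levels, with Muc6 at 0.900 to 431 CPM, Muc5ac at 0.461 to 30.7 and Dmbt1 at 60.2 to 11797, the last highest in IPI-926 replicate 3. Within ductal cells 4 of 7 genes of this list had negative fold changes, with a median of -0.01.

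UMIs of the family were also counted outside the epithelium, at a level per cell that was similar among the classes of a library and differed between libraries. In vehicle replicate 1 the 6 genes together were at 7.82 UMIs per cell in fibroblasts and at 9.76 in plasma cells, the lowest and highest of 10 classes with at least 20 cells. In CPM the same 10 classes spanned 11.4-fold, while per cell they spanned 1.25-fold, with median depths of 1358 to 16389.5 UMIs per cell. In vehicle replicate 2 the spans were 10.3-fold in CPM and 2.59-fold per cell, in IPI-926 replicate 2 18.4-fold and 1.80-fold, and in IPI-926 replicate 3 17.1-fold and 7.63-fold, its highest class being T or NK cells. In vehicle replicate 1 Gkn1 was at 478 CPM in neutrophils and 45.0 in mesothelial cells but between 0.623 and 1 UMIs per cell in each of the 10 classes. Outside ductal and acinar cells the family was at 8.61, 1.64 and 5.14 UMIs per cell in vehicle replicates 1 to 3 and at 0.0101, 2.25 and 0.969 in IPI-926 replicates 1 to 3. The groups overlapped, with vehicle replicate 2 below IPI-926 replicate 2, and the group means differed by -4.05 UMIs per cell, a value given without a test.

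**Figure D3:**
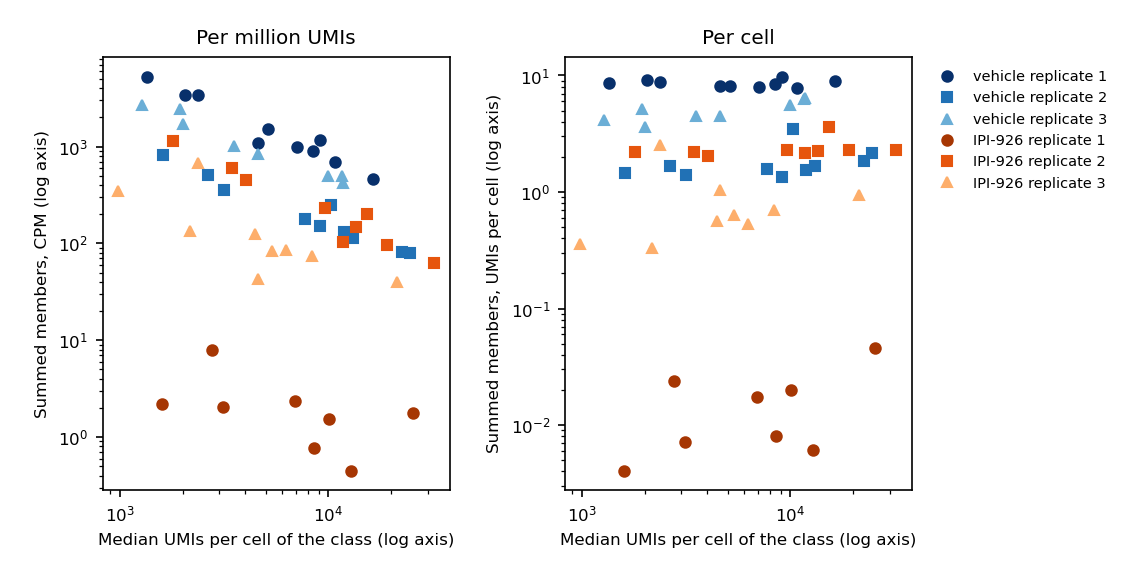
UMIs of the 6 genes together in the non-epithelial classes with at least 20 cells, against the median UMIs per cell of the class, in CPM (left) and per cell (right), both axes being log axes and each point being 1 class in 1 library. In CPM the points fall with depth, while per cell the libraries lie at levels of their own, 8.61 over all such cells of vehicle replicate 1 and 0.0101 in IPI-926 replicate 1, whose classes without any such UMI are not drawn.

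Gkn1, taken alone, was seen in 51.9%, 23.8% and 50.1% of macrophages and monocytes of vehicle replicates 1 to 3 (median depths of 8453, 7759.5 and 11636.5 UMIs) and in 0%, 4.68% and 2.40% in IPI-926, where 0 of 1374 cells in IPI-926 replicate 1 allows a share of up to 0.218% for counting error alone. In ductal cells of the same libraries it was seen in 74.7%, 59.1% and 67.4% and in 1.79%, 62.2% and 16.7%. Per cell the non-epithelial level of Gkn1 was 1.39%, 0.270% and 2.96% of the ductal level in the vehicle libraries. IPI-926 replicate 2 differed from the vehicle libraries in both places for Gkn2, at 0.00232 UMIs per non-epithelial cell against 0.204 to 0.294, yet for Gkn3 it was at 0.360 against 0.0543 to 0.876.

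The proportions of the 6 genes outside the epithelium resembled those in ductal cells of the same library. In vehicle replicate 1 Tff2 was 58.7% of the family's UMIs in ductal cells, 54.8% in the other named classes without T or NK cells and 53.8% in the 500 barcodes with fewest UMIs. In vehicle replicate 2, where Tff1 led, it was 56.7% in ductal cells, 52.5% in the other classes and 56.3% in those barcodes. In IPI-926 replicate 2 Tff2 was 61.9%, 65.0% and 66.3%. The leading gene was the same in all 3 places within each of these libraries. Shares also differed between places: in vehicle replicate 3 Gkn1 was 5.81% of the family in ductal cells but 14.2% in other classes and 14.96% in the barcodes with fewest UMIs, and Gkn2 1.74%, 5.69% and 8.65%. In the same library Tff2 was 59.2%, 47.5% and 43.1%. Tff3 in IPI-926 replicate 3 was 17.1%, 15.3% and 5.95%.

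**Figure D4:**
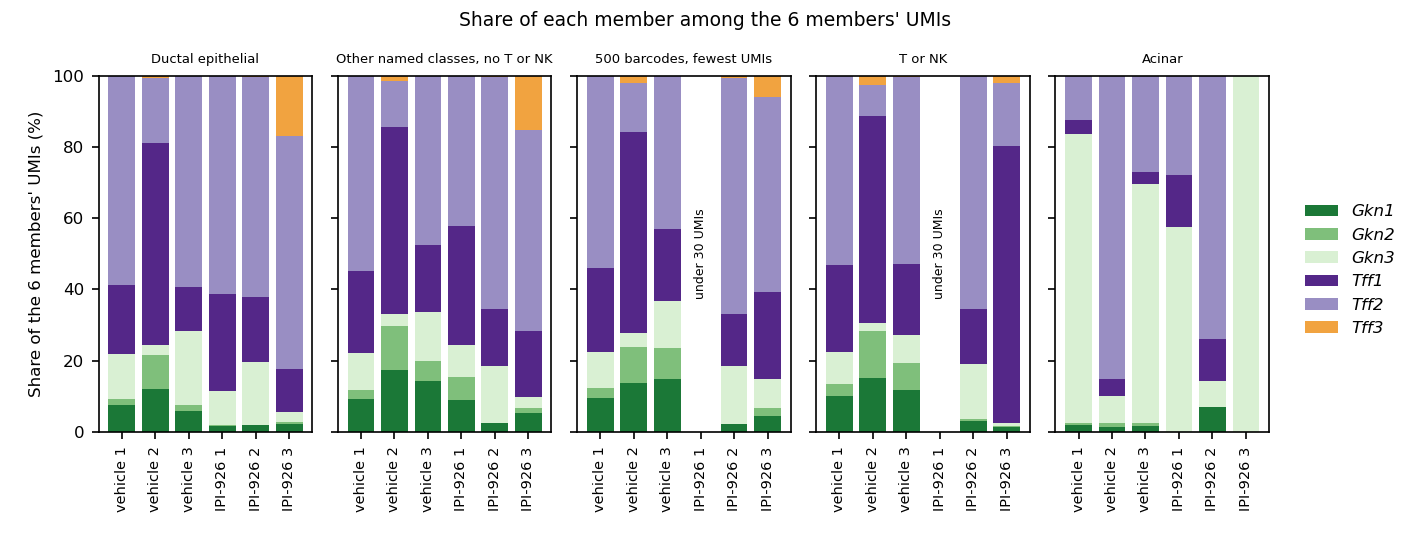
Share of each gene in the UMIs of the 6 genes (vertical axis, percent) in ductal cells, the other named classes without T or NK cells, the 500 barcodes with fewest UMIs, T or NK cells and acinar cells, 1 bar per library, with no bar where there were under 30 such UMIs. The leading gene in the first 3 panels is Tff2, or Tff1 in vehicle replicate 2, while T or NK cells of IPI-926 replicate 3 are mostly Tff1 (77.9%), and acinar cells of vehicle replicate 3 are mostly Gkn3 (66.9%).

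The barcodes with fewest UMIs gave the same order of libraries. Over the 500 in each library the family was at 10.4, 1.27 and 10.3 UMIs per barcode in vehicle and at 0.006, 4.65 and 1.14 in IPI-926, and in vehicle replicate 1 98.0% of them had a Tff2 UMI. No deposited barcode had under 500 UMIs, so shallower droplets could not be examined. Whether some of these 500 barcodes are empty droplets was not tested. In vehicle replicate 1 411 of the 500 were in clusters that stayed unnamed, and in IPI-926 replicate 1 415 of the 500 failed the filter, with a median of 22.5% mitochondrial UMIs. Per barcode they carried more of the family than the non-epithelial cells did in vehicle replicate 3 (10.3 against 5.14) and IPI-926 replicate 2 (4.65 against 2.25), and less in vehicle replicate 2 (1.27 against 1.64). The group means differed by -5.39 UMIs per barcode, again with overlap and without a test.

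Acinar cells, the enzyme-making cells of the exocrine pancreas, were rich in Gkn3 in vehicle replicate 3. The 205 acinar cells of vehicle replicate 3 had 14014 Gkn3 UMIs, or 1979 CPM, and 92.2% of them had at least 1 (exact 95% interval 87.6% to 95.5%), at a mean of 68.4 and a median of 9 UMIs per cell against a mean of 0.703 in the non-epithelial cells of that library. The acinar cells were deep, with a median of 24739 UMIs, and the single highest held 5.52% of their Gkn3 UMIs, together with 79 Epcam UMIs. Over all libraries, 127 of the 265 acinar cells were also picked by a rule on Epcam and Krt19. The same rule picked 4099 of the 6975 ductal cells and 1449 cells of unnamed clusters. It picked 229 cells in vehicle replicate 2, 1138 in IPI-926 replicate 2 and 123 in IPI-926 replicate 3. Ductal cells there numbered 734, 842 and 748. The part of ductal markers in the Gkn3 level was not tested. Gkn1 in the same acinar cells was at 50.1 CPM and Gkn2 at 27.4, so that Gkn3 made up 66.9% of the family there and 20.7% in ductal cells. The other libraries had 3 to 31 acinar cells. Gkn3 was at 1460 CPM in the 9 acinar cells of vehicle replicate 1, at 243 in 31 of vehicle replicate 2 and at 511 in 5 of IPI-926 replicate 1. The 12 acinar cells of IPI-926 replicate 2 had 3 Gkn3 UMIs, 0.25 per cell against 0.360 in its non-epithelial cells, and Tff2 made up 73.8% of the family there. The 3 of IPI-926 replicate 3 had 35 Gkn3 UMIs and no other UMI of the family, and the median depths were 668.5 and 668 UMIs. In vehicle replicate 2, 53 of the 63 Gkn3 UMIs lay in 1 cell that also had 94 Epcam UMIs, and Tff2 led there too, at 2733 CPM. No comparison between the groups is made for acinar cells, since vehicle replicates 2 and 3 alone had at least 20.

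Tff1 stood apart in T cells of IPI-926 replicate 3. Cluster 27, led by Nkg7, Ccl5 and Cd3g with Cd8a and Gzmk among its top genes, had 917 cells in that library, of which 98.9% had Nkg7, 91.2% Cd3e and 65.1% Cd8a UMIs. They carried 3213 Tff1 UMIs, 3.50 per cell with a median of 2, and 69.0% had at least 1 (exact 95% interval 65.9% to 72.0%). Tff2 was at 0.607 per cell and was seen in 20.9%, whereas ductal cells of the same library had more Tff2 than Tff1 (11242 against 2065 CPM). The other T or NK cells of that library, cluster 26, had 96 Tff1 UMIs in 776 cells, and 6.96% had at least 1 (5.27% to 8.98%). Across the remaining classes of IPI-926 replicate 3 Tff1 was between 0.0570 and 0.227 UMIs per cell.

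The Tff1 of cluster 27 was spread over many cells. A single cell with 16761 UMIs held 201 of the UMIs, and the next highest held 25. Among the 711 cells without any Epcam, Krt19, Krt8 or Krt18 UMI, a choice made after seeing the data, the level was 3.19 per cell and 67.8% had a UMI. Over both clusters of that library, T cells with Cd8a and no Cd4 UMI had 3.21 Tff1 UMIs per cell (693 cells), those with Cd4 and no Cd8a 2.24 (278 cells) and those with neither 0.519 (703 cells), at median depths of 3320.0, 2583 and 1757 UMIs. In vehicle replicates 1 to 3 T or NK cells of all clusters were at 2.20, 0.973 and 0.714 Tff1 UMIs per cell, where the classes spanned 1.60 to 2.28, 0.537 to 2.54 and 0.714 to 1.11, and in IPI-926 replicate 2 at 0.338, where the median class was at 0.347. In IPI-926 replicate 1 T or NK cells were the highest class for Tff1, as in IPI-926 replicate 3, but at 0.0193 per cell against a median class of 0.000815. That level was 12 Tff1 UMIs in 622 cells, beside 1 Tff2 UMI. Cluster 27 was almost wholly of 1 library, so whether it is a trait of the treatment, of this tumour or of this library cannot be told apart.

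**Figure D5:**
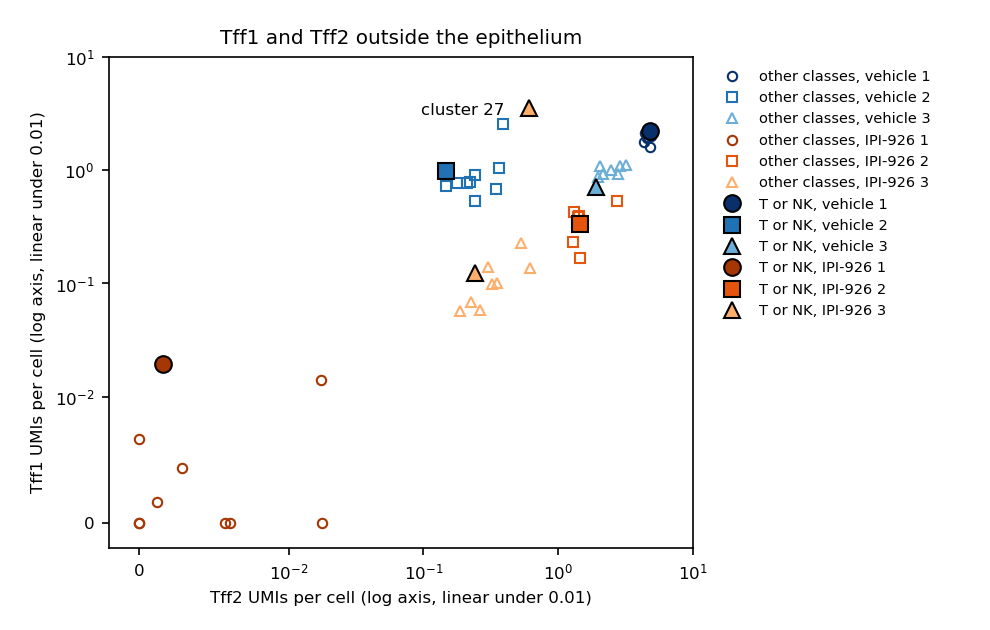
Tff1 against Tff2 UMIs per cell in T or NK clusters (filled) and in the other non-epithelial classes with at least 20 cells (open), 1 colour and shape per library, on log axes that are linear under 0.01. Cluster 27 of IPI-926 replicate 3 lies at 3.50 Tff1 and 0.607 Tff2 UMIs per cell, far above the other classes of its library in Tff1. T or NK cells are also the highest class for Tff1 in IPI-926 replicate 1, at 0.0193.

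Endothelial cells gave smaller departures. In the mouse brain Gkn3 is known from arterial endothelium, and in IPI-926 replicate 3, where Gkn3 was at 0.0226 UMIs per non-epithelial cell, 15 arterial-like endothelial cells had 10 Gkn3 UMIs and the other 292 endothelial cells had 2. The 10 UMIs lay in 3 cells (exact 95% interval of the share 4.33% to 48.1%, against 0.685%, 0.0831% to 2.45%, in the others), and the median depths were 9192 and 5307 UMIs. In vehicle replicates 1 and 3 arterial-like cells did not stand out, at 0.812 and 0.586 UMIs per cell against 0.862 and 0.579 in other endothelial cells. Gkn1 was seen in 10.1% of the 307 endothelial cells of IPI-926 replicate 3 (6.97% to 14.03%) and in 2.40% of its macrophages and monocytes (2.03% to 2.81%), and in 12.99% of 77 endothelial cells of IPI-926 replicate 2 (6.41% to 22.6%) against 4.68% (3.64% to 5.90%). Of the 61 Gkn1 UMIs in endothelial cells of IPI-926 replicate 3, 59 lay in a sub-cluster led by Cxcl9 and Ubd that held 281 of those 307 cells, and the endothelial cells were deeper than the macrophages there (medians of 5360.0 and 4431 UMIs). In the vehicle libraries endothelial and macrophage shares were 49.1% and 51.9%, 23.8% and 23.8%, and 38.0% and 50.1%. Tff1 in endothelial cells of vehicle replicate 2, at 2.54 per cell the highest of its non-epithelial classes, lay mostly in 22 cells led by Chil4 and Cdh17 and with the epithelial gene Cldn7 among their top genes, which held 498 of the 682 UMIs.

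Single cells weighed on the lowest counts. Of the 567 Gkn2 UMIs in the whole of IPI-926 replicate 2, 345, or 60.8%, were in 1 cell of an unnamed cluster that also had 308 Epcam and 378 Krt19 UMIs among 71508. The 842 ductal cells of that library held 161. In IPI-926 replicate 1 a cell with 66588 UMIs in the same cluster held 1003 of the library's 1924 Tff1 UMIs, more than its 782 ductal cells together, which held 708.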

How the data were processed

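Single-cell RNA libraries (10x Single Cell 3' v3) of 6 tumours, 3 vehicle and 3 IPI-926, were analysed from the deposited UMI counts per gene and barcode. Per the file headers the count matrices were written by cellranger 6.1.2, whereas Cell Ranger 2.1.1 and the mm10 build are named per the submitters' processing notes; the strand setting is not given in the sources used here. A barcode passed with 500 or more UMIs, 300 or more detected genes and a mitochondrial share of no more than 20% (54911 of 62905), and 5114 were removed as doublets by simulated neighbours. Between 14 and 59 barcode sequences were shared by any 2 libraries.

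Clusters (scanpy 1.11.5, Leiden resolution 1) were made without the 6 members and sex-linked genes and named from markers; 7 of 36, with 6807 cells, stayed unnamed. Counts were summed per library and tested with edgeR 4.0.16 (quasi-likelihood, TMM scaling, low-count filter, Benjamini-Hochberg adjustment over all genes tested, threshold 0.05) in R 4.3.3; DESeq2 1.42.0 and limma 3.58.1 were alternatives, as were other scalings, filters, clusterings and leaving out each library. The fits were tested on simulated data. Scaled CPM uses TMM library sizes. Intervals are exact Clopper-Pearson at 95%, the limit for a count of 0 is 3 counts, and both cover counting error only. The members and gene lists were chosen with earlier results of these data known. Named list genes are up to 4 per list with the smallest edgeR p in ductal sums, and Muc6, Cxcr4, Ackr3 and Lingo2 are also given by class. A further allele of the mice, shared by both groups, is not reported here.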

Additional observations from a re-analysis of the deposited data

How the results depend on the processing

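Called genes numbered 0 in ductal cells and 0 in all cells summed with edgeR under each scaling, filter, doublet and clustering alternative run, and 0 to 0 when each library was left out; DESeq2 called 64 and 121. Of the single-member values, 180 alternatives kept the direction and side of the threshold, 6 reversed and 1 passed it (Gkn2 in all cells with DESeq2, -6.15). The reversals were Tff2 in ductal cells (0.11 at Leiden resolution 2; -1.59 to 0.037 over libraries left out, positive without vehicle replicate 1), Tff3 in ductal cells (-3.28 with limma-voom; -1.65 to 5.06, negative without IPI-926 replicate 3) and Tff3 in all cells (-1.60 with limma-voom; -1.22 to 2.20, negative without IPI-926 replicate 3). The cause was not tested. Leaving out a library moved the difference in ductal share between -18.6 and -4.03 percentage points, the family's difference in the barcodes with fewest UMIs between -8.41 and -3.84, and that in other classes between -5.80 and -2.31 UMIs. No paired analysis was possible because nothing in the labels ties a vehicle tumour to an IPI-926 tumour. Ductal cells of IPI-926 replicate 3 were the shallowest, which limits low genes most there.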
